A study of Mus musculus with 74 samples.

Results

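Cdx1, Cdx2 and Isx encode homeodomain transcription factors of the intestinal epithelium, and their RNA was read in all 31 RNA libraries of a mouse gut series, 3 genes of the 24015 in its count table, taken by gene symbol. The libraries fall into 15 groups, each of 2 libraries except the group deleted at E10, which holds 3. The wild-type embryonic groups were CD1 mice, with forestomach, hindstomach and small intestine at embryonic days 12, 14 and 16 (E12, E14, E16) and small intestine at E18. The libraries labelled Cdx2-deleted came from mice of a mixed B6;129 background. One group was Cdx2f/f with Shh-Cre, deleted at E10 and taken at E16 with no treatment. The other embryonic ones were Cdx2f/f with Villin-Cre and 5 mg tamoxifen by gavage, labelled deleted at E13 and taken at E16, or labelled deleted at E15 and taken at E18. Adult ileal villi, also B6;129, came from Cdx2f/f mice given the oil vehicle on 5 days, called wild type in the labels, and from Cdx2f/f mice with Villin-Cre given 1 mg tamoxifen on 5 days; both were taken 3 days after the last injection. Cells of E12 to E16 were sorted on Epcam, a surface protein of epithelium, while E18 and adult cells were villi released with EDTA, so stage and preparation cannot be told apart between E16 and E18. Shh-Cre acts in early gut endoderm and Villin-Cre in intestinal epithelium. Strain and deletion cannot be told apart in any embryonic comparison of deleted with wild-type libraries.

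CDX1 and CDX2 are relatives of the fly protein caudal; CDX2 sets the intestinal identity of the gut endoderm and keeps stomach genes off, and CDX1 is a related factor that is also known as a target of Wnt signalling. ISX is a homeodomain repressor of the intestine that responds to retinoic acid. It is known for repressing Bcmo1, which encodes the enzyme that cleaves beta-carotene to retinal, and Scarb1, a receptor that takes up carotenoids and lipids. RefSeq now calls Bcmo1 by the symbol Bco1.

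The bases upstream of the Cdx2, Isx and Bco1 starts are shown because Cdx2 is the deleted gene, Isx the member called lower in the libraries labelled E15 and adult, and Bco1 the known ISX target with the larger rise there; windows of Cdx1 and Scarb1 are not given. They are the 250 bases before each annotated start in RefSeq's GRCm38.p6: chr5:147307250-147307499 on the minus strand, chr8:74872924-74873173 on the plus strand and chr8:117095615-117095864 on the plus strand. Capitals mark matches, on either strand, to the letters searched.
Cdx2: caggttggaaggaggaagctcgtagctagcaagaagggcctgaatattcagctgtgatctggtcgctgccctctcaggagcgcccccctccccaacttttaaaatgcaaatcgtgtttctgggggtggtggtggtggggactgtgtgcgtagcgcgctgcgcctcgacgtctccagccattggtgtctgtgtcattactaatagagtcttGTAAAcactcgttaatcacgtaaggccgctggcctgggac
Isx: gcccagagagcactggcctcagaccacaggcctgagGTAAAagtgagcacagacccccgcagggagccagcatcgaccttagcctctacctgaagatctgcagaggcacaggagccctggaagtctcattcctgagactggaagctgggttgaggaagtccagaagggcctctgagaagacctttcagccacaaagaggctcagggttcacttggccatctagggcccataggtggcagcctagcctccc
Bco1: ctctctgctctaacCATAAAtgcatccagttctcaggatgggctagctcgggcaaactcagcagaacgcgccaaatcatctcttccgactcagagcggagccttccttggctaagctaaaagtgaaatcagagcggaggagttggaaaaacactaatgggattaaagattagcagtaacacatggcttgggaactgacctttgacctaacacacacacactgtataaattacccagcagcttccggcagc
Of 4 motifs searched first, none matched in the Cdx2 or Isx window. The caudal-type motif TTTATG matched once, on the opposite strand, in the Bco1 window, 236 to 231 bases before the start, and occurs in 10.8% of 32851 promoter windows of the same length. A variant, TTTATT, occurs in 18.1% of these windows, and another variant, TTTACT, in 10.7% of them. The homeodomain-type motif TAATTA occurs in 4.84%. A shorter motif, TTTAC, was added only after those 4 gave no match in either member; it is the start of one of the variants and occurs in 28.3% of all windows. It matched on the opposite strand in Cdx2, 40 to 36 bases before the start, and in Isx, 214 to 210 bases before the start. A match of letters is a description of the window and not a site.

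Depth lay between 5970227 and 62463167 total counts (median 21910062 over the 31 libraries), and the 2 E16 forestomach libraries were the shallowest. Levels are given as CPM, counts scaled to one common library total; embryonic and adult libraries were scaled apart, so their CPM are set side by side only as a description. Nothing says that the libraries of a group came from separate animals, so a p-value measures no more than a spread between libraries. For embryos that spread was estimated for each gene over all 13 groups together, so it is not that of the groups compared alone. In bulk samples, fewer cells of a type and less RNA per cell cannot be told apart. The counts do not resolve exons, and whether counting used strand is not given in the sources used here, so reads of Cdx2 and of an antisense partner cannot be told apart.

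The position markers of the 2 libraries labelled E12 hindstomach went against their label, which bears on every result that uses them. These libraries held posterior Hox genes, which mark the hind end of the body axis: the 16 Hox genes of paralog groups 9 to 13 summed to 435 and 464 CPM there, against at most 2.06 CPM in any other wild-type library of E12 to E18. Hoxb13 stood at 150 and 159 CPM and Hoxa10 at 104 and 120 CPM. Gata4, a factor of stomach and proximal intestine, stood at 0.369 and 0.569 CPM, against 338 and 358 CPM in E14 hindstomach, and Nkx6-3, a factor of the distal stomach, had 0 and 2 counts. Sox2 and Sox21, factors of the anterior gut, stood there at 20.6 and 9.07 CPM and at 4.25 and 3.41 CPM. E12 intestine held less, with 6.63 and 3.41 CPM of Sox2 and 0.0338 and 1.85 CPM of Sox21. These genes were chosen after their values were seen. The libraries labelled E12 forestomach held 40.7 and 47.9 CPM of Nkx6-3, which had 0 counts in both E14 forestomach libraries. They held 277 and 273 CPM of Gata4, against 55.7 and 58.1 CPM in E14 forestomach. Sox2 and Sox21 were abundant in forestomach at both stages. At E12 Sox2 stood at 185 and 160 CPM against 190 and 153 CPM in E14 forestomach, and Sox21 at 119 and 132 CPM against 140 and 159 CPM. Both were abundant in E14 hindstomach too, with 92.3 and 68.2 CPM of Sox2 and 123 and 141 CPM of Sox21. Whether the E12 forestomach label is right was not tested, and results set against E12 forestomach rest on it. Cdx2, the targeted gene, was low only in the libraries deleted at E10 among the groups labelled Cdx2-deleted; since gene counts cannot show the loss of an exon, the Cdx2 counts do not check the deletion in the other groups. The 2 libraries labelled deleted at E13 ranked genes more like E18 wild-type intestine (mean Spearman correlation 0.933) and the E15-deleted group (0.957) than like E16 wild-type intestine (0.841), and so their members and the genes named below are set beside both wild-type stages.

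**Figure D1:**
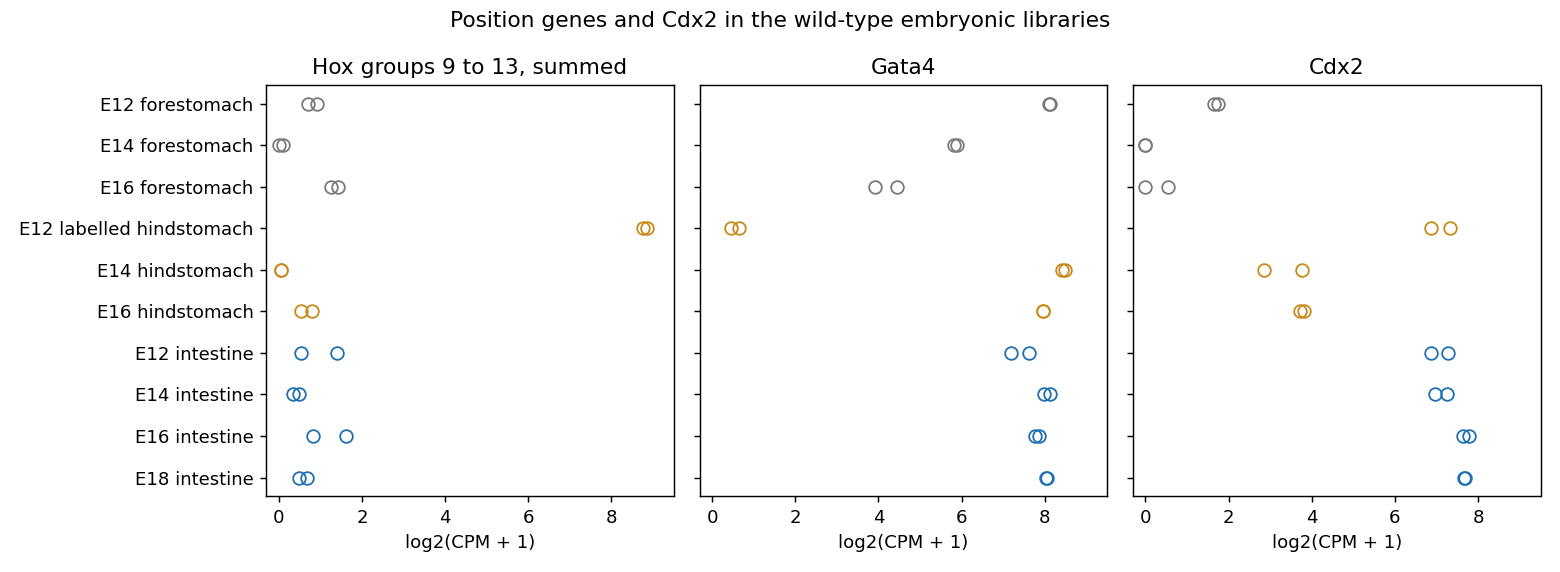
Levels in the 20 wild-type embryonic libraries, as log2(CPM + 1) on the horizontal axis, of the 16 Hox genes of paralog groups 9 to 13 summed (left), Gata4 (middle) and Cdx2 (right); each circle is 1 library. The 2 libraries labelled E12 hindstomach stand apart, with 435 and 464 CPM of the Hox genes and under 1 CPM of Gata4.

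Cdx2 was present in wild-type small intestine from the first stage sampled and its level passed no test between consecutive stages. It stood at 153 and 115 CPM at E12, 123 and 152 CPM at E14, 196 and 218 CPM at E16, and 200 and 206 CPM at E18. The E12 and E14 libraries overlap, the E16 and E18 libraries overlap, and the later pair of stages lies above the earlier pair. The log2 fold change was 0.04 (SE 0.28, edgeR adjusted p 0.96) from E12 to E14, 0.59 (SE 0.28, edgeR adjusted p 0.101) from E14 to E16 and -0.03 (SE 0.28, edgeR adjusted p 0.969) from E16 to E18. In forestomach Cdx2 was at 2.33 and 2.15 CPM at E12, had 0 counts in both libraries at E14, and had 3 and 0 counts at E16. Against a floor of 3 counts per library, it was at least 1160-fold higher in intestine than in forestomach at E14.

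In hindstomach, Cdx2 stood at 12.7 and 6.20 CPM at E14 and at 12.1 and 13.1 CPM at E16, overlapping between the stages. Small intestine was higher by 3.86 on the log2 scale (SE 0.32, edgeR adjusted p 2.17e-07) at E14 and by 4.04 (SE 0.32, edgeR adjusted p 2.8e-08) at E16. The libraries labelled E12 hindstomach held 116 and 160 CPM, overlapping E12 intestine, with a log2 difference of -0.05 (SE 0.28, edgeR adjusted p 0.984). The change of -3.87 on the log2 scale from those libraries to E14 hindstomach (SE 0.32, edgeR adjusted p 8.04e-08; 17.2% of genes called) rests on libraries that carry posterior Hox genes and lack Gata4; their part in it was not tested. In the same way, the gap between intestine and hindstomach was wider at E16 than at E12 by 4.09 (SE 0.42, edgeR adjusted p 1.44e-06; 20.3% of genes called), but with E14 as the earlier stage, a comparison added after the data were seen, it differed by 0.18 (SE 0.41, edgeR adjusted p 0.85; 13.1% of genes called).

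Cdx1 followed another course and rose late. In wild-type small intestine it had 0 and 1.02 CPM at E12, 12.1 and 10.8 CPM at E14, 324 and 299 CPM at E16, and 91.3 and 92.4 CPM at E18. No 2 consecutive stages overlap. It rose by 4.45 on the log2 scale from E12 to E14 (SE 0.71, edgeR adjusted p 0.000178), where 16.2% of 17239 genes tested were called, and it was the only one of the 3 members called. It rose by a further 4.76 from E14 to E16 (SE 0.60, edgeR adjusted p 5.87e-06; 25.6% of genes called) and fell by 1.76 from E16 to E18 (SE 0.53, edgeR adjusted p 0.00833; 42.1% of genes called). A gene was called when its adjusted p was under 0.05 and its log2 fold change at least 1 either way. The E12 to E14 rise rests on few counts at E12, 0 and 32: without the second E12 library, which leaves 0 counts, the fitted value was 11.11 and is no measured fold, and without the first it was 3.49. That rise was not called in a fit of those 2 groups alone (4.46, edgeR adjusted p 0.199), and the E16 to E18 fall was not called by DESeq2 (adjusted p 0.0751), without either E18 library (edgeR adjusted p 0.056 and 0.0547) or with replicate pairs summed (edgeR adjusted p 0.105). Markers of other cell types moved at each step. From E12 to E14, 4 of 6 immune genes were called higher, and 6 of 13 mesenchyme and muscle genes higher and 3 lower. From E14 to E16, 8 of 13 mesenchyme and muscle genes were called higher (0.0416 to 0.0482% of counts, then 0.155 to 0.168%). So were 4 of 4 endothelial genes (0.00022 to 0.00024%, then 0.00439 to 0.00502%), 5 of 6 immune genes (0.00505 to 0.00587%, then 0.0305%) and 3 of 5 epithelial genes (0.428 to 0.436%, then 0.839 to 0.862%). Over the E16 to E18 step mesenchyme and muscle genes, 11 of 13 called lower, fell to 0.00263 to 0.00278% of counts; their part in any step was not tested.

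In the stomach Cdx1 stayed low until E16 hindstomach. It stood at 0.353 and 0.338 CPM in E14 hindstomach and at 9.54 and 10.9 CPM in E16 hindstomach, without overlap, a rise of 4.86 (SE 0.77, edgeR adjusted p 0.000111) in a comparison that called 22.0% of genes. Genes of other cell types rose in it too: 13 of 13 of mesenchyme and muscle (0.0164 to 0.0178% of counts at E14, 0.895 to 0.933% at E16), 6 of 6 of immune cells (0.000438 to 0.000474%, then 0.091 to 0.108%) and 4 of 4 of endothelium; their part was not tested. The E16 hindstomach level overlaps that of E14 small intestine. Intestine was higher than hindstomach by 5.03 at E14 (SE 0.77, edgeR adjusted p 0.000211) and by 4.93 at E16 (SE 0.61, edgeR adjusted p 4.79e-06), and the gap did not pass the test of a difference between those stages (-0.10, SE 0.86, edgeR adjusted p 0.997). Forestomach held 0.458 and 0.906 CPM at E12, 1.58 and 2.64 CPM at E14 and 0 counts in both E16 libraries. The E16 forestomach libraries carried 1.58 to 2.03% of counts from blood genes and 2.65 to 3.2% from mesenchyme and muscle genes, with 0.157 to 0.162% from 5 epithelial genes, against 0.839 to 0.862% in E16 intestine; the part of these in the low values was not tested. At E12, Cdx1 had 13 and 35 counts in forestomach, 37 and 68 in the libraries labelled hindstomach, and 0 and 32 in intestine. The log2 difference of intestine was -1.60 from hindstomach and -0.43 from forestomach, neither called; both rest on the second intestine library, since the other holds 0 counts.

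Isx was already high in small intestine at E12, and no step between stages there passed the test. It stood at 146 and 136 CPM at E12, 184 and 177 CPM at E14, 118 and 124 CPM at E16, and 169 and 164 CPM at E18. These 4 stages do not overlap, but the log2 fold changes were 0.36 (SE 0.60), -0.57 (SE 0.60) and 0.46 (SE 0.60), with edgeR adjusted p of 0.696, 0.475 and 0.549. The spread behind these tests was shared over all 13 embryonic groups, and Isx ranged from 0.735 to 12.8 CPM within the E10-deleted group. Hindstomach held 332 counts in each E14 library (mean 12.1 CPM) and 226 and 257 counts at E16 (mean 10.6 CPM), lower than intestine by a log2 difference that was 3.90 at E14 (SE 0.68, edgeR adjusted p 0.000787) and 3.51 at E16 (SE 0.68, edgeR adjusted p 0.000499). All 3 members were called higher in intestine than in hindstomach at both stages, where 6.83% of genes were called at E14, 3.35% higher, and 25.7% at E16, 8.10% higher.

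The libraries labelled E12 hindstomach split the members. Isx had 651 and 774 counts in them (mean 21.6 CPM), below both E12 intestine libraries (log2 difference 2.71, SE 0.64, edgeR adjusted p 0.00886, with 9.28% of genes called), while Cdx2 was at the intestinal level and Cdx1 was not called (-1.60, SE 0.78, edgeR adjusted p 0.176). Leaving out either of those 2 libraries ended the Isx call, with adjusted p of 0.0717 and 0.0593. Forestomach held 3.10 and 0.595 CPM of Isx at E12, 1 and 0 counts at E14 and 0 counts in both E16 libraries. Intestine was higher than forestomach at E12 by 6.31 for Isx (SE 0.79, edgeR adjusted p 2.64e-05; 7.88 and 5.50 without the first and the second forestomach library) and by 5.90 for Cdx2 (SE 0.36, edgeR adjusted p 2.86e-09), with 10.1% of genes called. At E14 Isx was called higher in intestine (edgeR adjusted p 6.72e-07), and Cdx1 was higher by 2.43 (SE 0.60, edgeR adjusted p 0.00764), with 11.9% of genes called; the Cdx1 call was lost without the first E14 forestomach library (2.12, adjusted p 0.102). At E16, where 35.0% of genes were called, Isx was at least 262-fold higher in intestine than the floor of 3 counts per library in forestomach. Against E12 forestomach, the libraries labelled E12 hindstomach were higher by 5.95 for Cdx2 (SE 0.36, edgeR adjusted p 2.8e-09) and by 3.60 for Isx (SE 0.73, edgeR adjusted p 0.00281), with 7.11% of genes called; the Isx call was lost without the second forestomach library (2.80, adjusted p 0.0578).

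**Figure D2:**
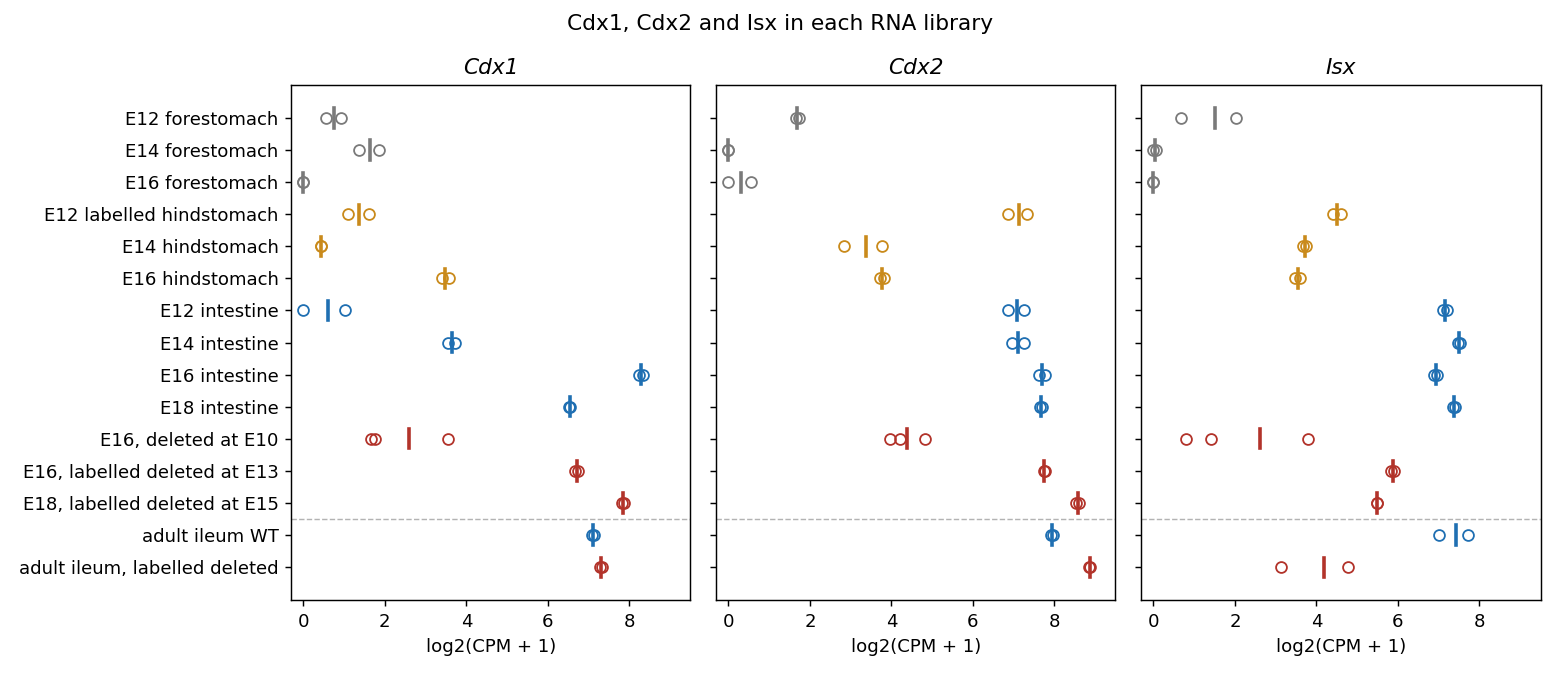
Levels of Cdx1, Cdx2 and Isx in each of the 31 RNA libraries, as log2(CPM + 1); circles are libraries and vertical bars group means, grey for forestomach, orange for hindstomach, blue for wild-type intestine and red for libraries labelled Cdx2-deleted. The adult groups below the dashed line were scaled apart; In wild-type intestine Cdx1 climbs from 0 and 1.02 CPM at E12 to a mean of 312 CPM at E16, while Cdx2 and Isx are above 100 CPM at every embryonic stage.

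All 3 members were lower at E16 after deletion at E10, in a comparison that called 51.5% of genes (27.6% lower and 23.9% higher). Cdx2 stood at 17.4, 14.5 and 27.5 CPM in the 3 deleted libraries, all below the 196 and 218 CPM of E16 wild type, a log2 change of -3.40 (SE 0.27, edgeR adjusted p 3.04e-09). Cdx1 stood at 2.40, 2.18 and 10.6 CPM and fell by 6.06 (SE 0.56, edgeR adjusted p 2.37e-08). Isx stood at 0.735, 1.68 and 12.8 CPM and fell by 4.74 (SE 0.64, edgeR adjusted p 3.42e-06). The library of replicate 3 was the highest of the 3 for every member, and without it the change was -7.08 for Cdx1 and -6.69 for Isx. No member was called against E16 hindstomach, a comparison that called 56.3% of genes and that shares the deleted libraries: the log2 differences were -1.12 for Cdx1 (SE 0.54, edgeR adjusted p 0.0755), 0.64 for Cdx2 (SE 0.28, edgeR adjusted p 0.0521) and -1.23 for Isx (SE 0.65, edgeR adjusted p 0.0997). That rests on replicate 3, since without it Cdx1 was lower by -2.15 and Isx by -3.18, both called. Glandular stomach markers, 6 of 6 of them above the floor, took 0.221 to 0.437% of counts in the deleted libraries against 0.00105 to 0.00115% in E16 wild-type intestine. Forestomach genes were called higher in 5 of 5, at 0.00902 to 0.0216% of counts against at most 0.000153%, and mesenchyme and muscle genes lower in 8 of 13 and higher in 1. Against E16 hindstomach, mesenchyme and muscle genes were lower in 13 of 13 (0.895 to 0.933% of counts in hindstomach, 0.0124 to 0.0196% here), endothelial genes in 4 of 4 and nerve and glia genes in 5 of 5. The part of these lists in either comparison was not tested.

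In the libraries labelled deleted at E13, the Cdx2 count did not pass the test against either wild-type stage, and it cannot show whether an exon was lost. It stood at 213 and 217 CPM, with a log2 difference of 0.05 from E16 wild type (SE 0.28, edgeR adjusted p 0.905) and 0.08 from E18 wild type (SE 0.28, edgeR adjusted p 0.906). Cdx1, at 101 and 106 CPM, was lower than at E16 by a log2 change of -1.59 (SE 0.52, edgeR adjusted p 0.0158; 39.5% of genes called, 18.7% higher and 20.8% lower), but not lower than at E18 (0.17, SE 0.51, edgeR adjusted p 0.885; 16.1% of genes called, 8.19% higher and 7.91% lower). Isx, at 56.3 and 58.7 CPM, lay below every wild-type intestine library of either stage without being called: -1.07 against E16 (SE 0.61, edgeR adjusted p 0.151) and -1.53 against E18 (SE 0.62, edgeR adjusted p 0.0812). DESeq2 did not call Cdx1 against E16 (adjusted p 0.107), and the call was lost as well without the first E16 wild-type library (adjusted p 0.065) or either library labelled E13 (0.0931 and 0.0795). Against E16, mesenchyme and muscle genes were lower in 11 of 13 (0.155 to 0.168% of counts in wild type, 0.00246 to 0.00273% here) and glandular stomach genes higher in 5 of 6 (0.00105 to 0.00115%, then 0.165 to 0.171%). Immune genes took 0.0305% in wild type and 0.13 to 0.135% here, with 1 of 6 called higher and 2 lower. Against E18, mesenchyme and muscle genes were higher in 5 of 13 and lower in 1, and glandular stomach genes higher in 6 of 6. Immune genes were higher in 1 of 6 and lower in 3 against E18. The part of these lists in either comparison of E13 was not tested.

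In the E18 libraries labelled deleted at E15, the members parted. Isx stood at 43.8 and 44.1 CPM against 169 and 164 CPM in wild type and was lower by a log2 change of -1.92 (SE 0.63, edgeR adjusted p 0.0263), where 17.5% of genes were called, 7.79% higher and 9.70% lower. Cdx2 was higher, at 388 and 371 CPM against 200 and 206 CPM, a log2 difference of 0.90 (SE 0.28, edgeR adjusted p 0.0206) that is under the fold minimum. Cdx1 lay at 233 and 224 CPM against 91.3 and 92.4 CPM, with no overlap and no call (1.31, SE 0.52, edgeR adjusted p 0.0655). The Isx call was lost with DESeq2 (adjusted p 0.0599) and when any 1 of the 4 libraries was left out (adjusted p 0.0832 to 0.14). It was also lost when each of the closest replicate pairs, those of E18 wild type and of the libraries labelled E13 and E15, was summed into 1 library (-1.89). Between the replicates of these groups, chi-square per degree of freedom, near 1 for counting noise alone, was 1.53, 2.48 and 5.02. It was 9.39 or more in every other group. Whether the close pairs are repeats of the same material is not given. Immune genes, 4 of 6 called lower, took 0.0538 to 0.0563% of counts in E18 wild type and 0.0118 to 0.0119% here. Epithelial genes, 2 of 5 called higher, took 0.559 to 0.572% in wild type and 0.996 to 1.06% here. Glandular stomach genes, 3 of 6 called higher, went from at most 3.43e-05% to 0.00206 to 0.00223%. The 16 posterior Hox genes summed to 7.68 and 8.58 CPM here against 0.411 and 0.604 CPM. The part of these lists was not tested.

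In the adult comparison Isx was again the member called lower. Isx stood at 211 and 128 CPM in adult wild-type ileum and at 7.78 and 26.5 CPM in the libraries labelled deleted, a log2 change of -3.32 (SE 0.65, edgeR adjusted p 0.021) in a comparison that called 20.4% of 12444 genes, 1047 higher and 1497 lower. Cdx2 stood at 242 and 248 CPM in wild type and 472 and 462 CPM in the libraries labelled deleted (0.93, SE 0.12, edgeR adjusted p 0.00731, under the fold minimum). Cdx1 stood at 140 and 134 CPM against 153 and 159 CPM (0.19, SE 0.11, edgeR adjusted p 0.229). Without the first wild-type library the Isx change was -2.92 and was not called (adjusted p 0.0559); over the 4 libraries left out in turn it ranged from -4.44 to -2.64. The wild-type ileum carried 0.0666 to 0.225% of counts from 6 immune genes against 0.0304 to 0.0335% in the libraries labelled deleted. Epithelial genes, 2 of 5 called higher, took 0.783 to 1.06% in wild type and 1.7 to 1.91% in the libraries labelled deleted. All 3 glandular stomach genes tested were called higher. The 16 posterior Hox genes summed to 2.31 to 5.95 CPM in wild type and 17.3 to 25.8 CPM in the libraries labelled deleted. The part of these lists was not tested.

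The change from wild type differed between the E10 and E15 groups for Cdx1 and Cdx2, and less firmly for Isx, by a test of the difference itself, added after the data were seen. Cre driver, tamoxifen, stage and preparation differ between these groups too and cannot be told apart from the time of deletion. The effect labelled E15 exceeded that of E10 by 7.37 for Cdx1 (SE 0.78, edgeR adjusted p 3.28e-07), by 4.30 for Cdx2 (SE 0.40, edgeR adjusted p 5.53e-08) and by 2.83 for Isx (SE 0.88, edgeR adjusted p 0.0124), with 41.1% of genes called. The Isx difference was not called with DESeq2 (2.40, adjusted p 0.0894) or with replicate pairs summed (2.89, adjusted p 0.0909), and it was 4.77 without replicate 3 of the E10-deleted group. Isx was lower than wild type in both. The E13-labelled libraries also lay above the E10-deleted ones for all 3, by 4.46 for Cdx1, 3.46 for Cdx2 and 3.67 for Isx, all called by edgeR beside 57.4% of genes. Without replicate 3 of the E10-deleted group the values were 5.49 for Cdx1 and 5.62 for Isx.

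**Figure D3:**
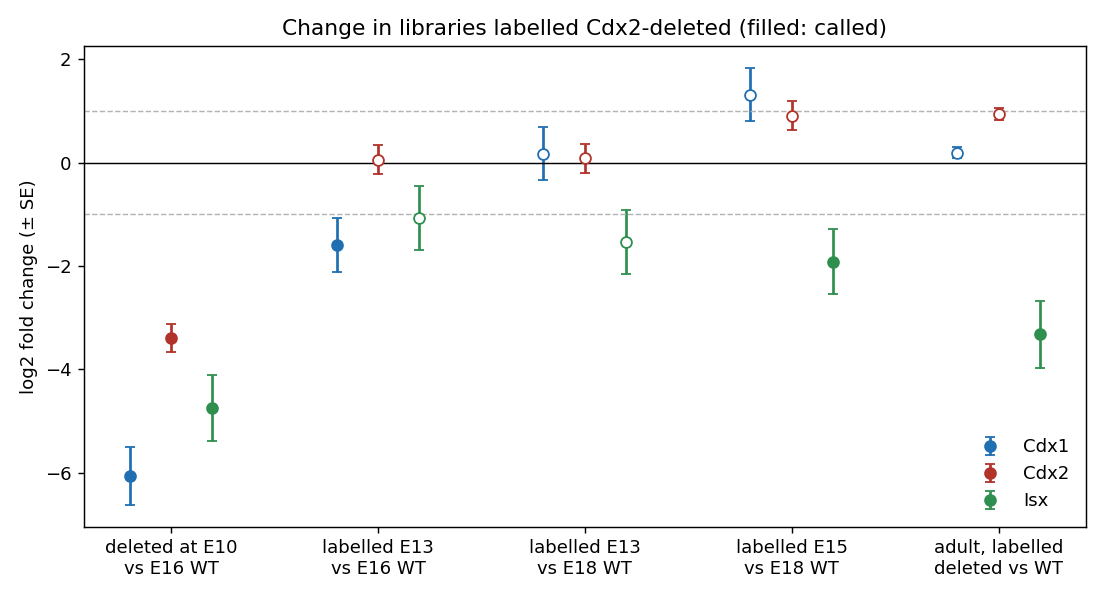
Log2 fold change of Cdx1, Cdx2 and Isx, with SE as error bars, in libraries labelled Cdx2-deleted against wild type; filled circles are called, and dashed lines mark the fold minimum. All 3 lie below 0 after deletion at E10, while only Isx lies below -1 in the libraries labelled E15 and in the adult.

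Both genes that ISX is known to repress were called higher in the libraries labelled E13, E15 and adult, where Isx was below wild type (called at E15 and in the adult). After deletion at E10 both were called lower, and so was Isx (-4.74, edgeR adjusted p 3.42e-06). Bcmo1 stood at 2.31 and 3.00 CPM in adult wild type and at 257 and 263 CPM in the libraries labelled deleted, higher by 6.61 (SE 0.19, edgeR adjusted p 0.000604). At E18 it stood at 1.81 and 2.63 CPM in wild type and at 34.4 and 29.2 CPM in the libraries labelled E15, higher by 3.82 (SE 0.52, edgeR adjusted p 1.6e-05). The libraries labelled E13 held 65.5 and 67.4 CPM of Bcmo1 against 4.23 and 1.53 CPM in E16 wild type (4.52, SE 0.53, edgeR adjusted p 7.4e-07), and were higher than E18 wild type by 4.89 (SE 0.55, edgeR adjusted p 1.45e-06). None of these groups overlap. After deletion at E10, Bcmo1 stood at 0.401, 0.587 and 1.24 CPM and was lower than wild type by a log2 change of -2.05 (SE 0.50, edgeR adjusted p 0.00153). The E15 and E10 effects on Bcmo1 differed by 5.87 (SE 0.71, edgeR adjusted p 1.21e-06).

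Scarb1 moved in the same directions. It stood at 1.13 and 1.30 CPM in adult wild type and at 82.4 and 102 CPM in the libraries labelled deleted, higher by 6.23 (SE 0.21, edgeR adjusted p 0.000718). It stood at 20.6 and 19.2 CPM in E18 wild type and at 161 and 149 CPM in the libraries labelled E15 (2.96, SE 0.13, edgeR adjusted p 1.68e-11). In the libraries labelled E13 it was at 267 and 266 CPM against 109 and 86.7 CPM at E16 (1.45, SE 0.12, edgeR adjusted p 1.3e-08), and higher than E18 wild type by 3.75 (SE 0.14, edgeR adjusted p 8.89e-13). After deletion at E10 it was at 18.1, 16.2 and 16.4 CPM, lower by a log2 change of -2.53 (SE 0.12, edgeR adjusted p 1.76e-12), and the E15 and E10 effects differed by 5.49 (SE 0.18, edgeR adjusted p 1.33e-13). In wild-type intestine Scarb1 changed by -2.30 on the log2 scale from E16 to E18 (SE 0.13, edgeR adjusted p 5.47e-11) while Isx was not called.

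**Figure D4:**
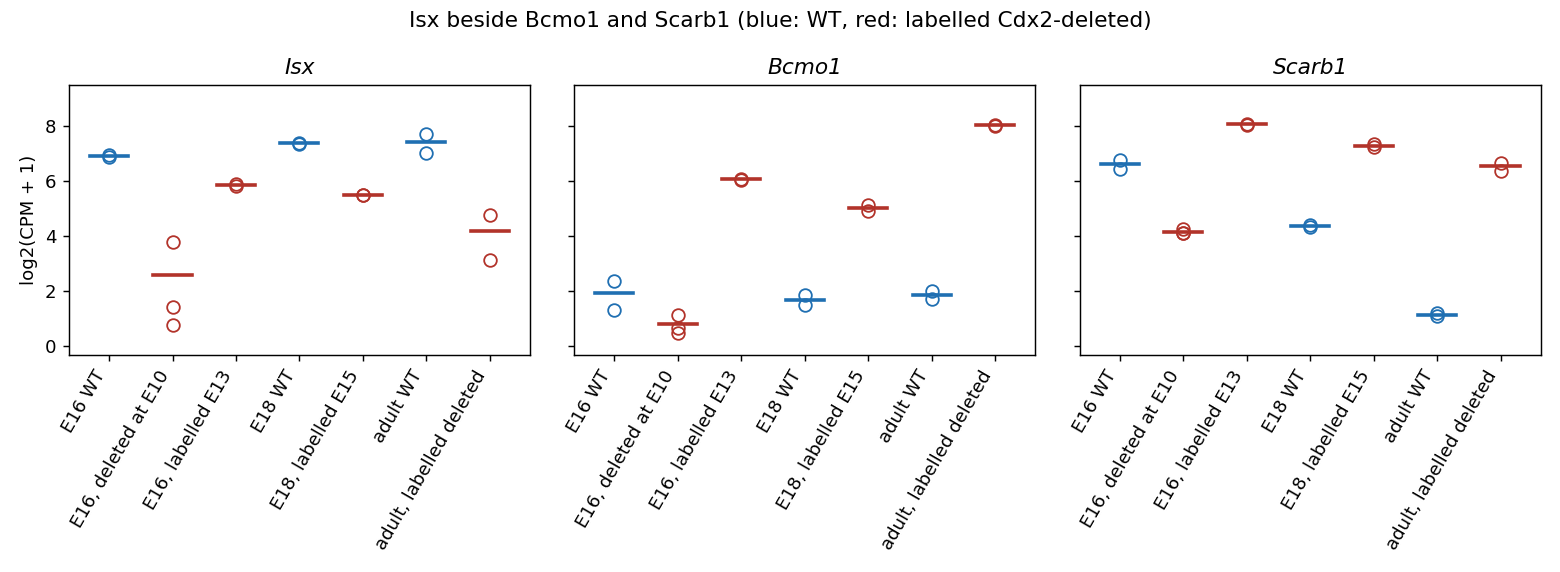
Isx, Bcmo1 and Scarb1 in each wild-type intestine library of E16, E18 and adult (blue) and each library labelled Cdx2-deleted (red), as log2(CPM + 1); horizontal bars are group means. In the libraries labelled E13, E15 and adult, Bcmo1 and Scarb1 lie above wild type and Isx lies below it. After deletion at E10, Isx, Bcmo1 and Scarb1 all lie below wild type.

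Of 24 listed genes of vitamin A uptake and retinoic acid signalling, 23 were tested in embryos. In the libraries labelled E15, 4 were called higher and 3 lower (7.79% and 9.70% of all genes), with a median log2 fold change of 0, as over all genes; Bcmo1 had the largest rise and Cd36, a fatty acid transporter, the largest fall (-4.84, SE 0.66, edgeR adjusted p 1.42e-05). Against E18, the libraries labelled E13 had 8 higher and 2 lower (8.19% and 7.91% of all genes), with Aldh1a2, an enzyme that makes retinoic acid, the largest rise, with 29 and 30 counts against 0 and 1 (edgeR adjusted p 0.000211). Against E16 they had 8 higher and 6 lower (18.7% and 20.8% of all genes). In the adult, 4 of 14 tested were higher and 2 lower (1047 and 1497 of all 12444 genes), again with Bcmo1 and Cd36 (-4.66, SE 0.67, edgeR adjusted p 0.0102) at the ends. After deletion at E10, 11 were lower and 4 higher (27.6% and 23.9% of all genes), with a median of -1.24 against -0.10 over all genes; Rxrg, a retinoid receptor, had 0 counts in all 3 deleted libraries against 15 and 31 in wild type, at least 4.46-fold lower (edgeR adjusted p 0.00856).

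Among 14 genes described as CDX targets, 12 were called higher in intestine than in hindstomach at E16 and 0 lower (8.10% and 17.5% of all genes), with a median of 3.38 against -0.18 over all genes; Guca2a, which encodes the hormone guanylin, was highest (8.78, SE 0.60, edgeR adjusted p 9.02e-09). After deletion at E10, 11 were lower and 2 higher (27.6% and 23.9% of all genes), with a median of -3.20 against -0.10; Gucy2c, the guanylin receptor, fell by 6.44 (SE 0.40, edgeR adjusted p 5.87e-11) and Sis, the sucrase-isomaltase gene, rose by 2.77 (SE 1.05, edgeR adjusted p 0.0343) to a mean of 47.1 CPM ± 41.2 (SD, n = 3). These comparisons share the E16 intestine libraries. In the libraries labelled E15, 6 were lower and 1 higher (9.70% and 7.79% of all genes), with a median of -1.15 against 0; Lct, the lactase gene, fell by 7.50 (SE 0.39, edgeR adjusted p 2.14e-10) and S100g, a calcium-binding protein, rose by 4.96 (SE 0.40, edgeR adjusted p 3.39e-08). In the adult, 5 were lower and 0 higher by edgeR (1497 and 1047 of all 12444 genes), with a median of -0.70 against 0.01, and Lct again fell most (-9.40, SE 1.42, edgeR adjusted p 0.0112), from a wild-type mean of 1293 CPM ± 1415 (SD, n = 2). The libraries labelled E13 had 1 higher and 5 lower against E18 (8.19% and 7.91% of all genes), and 6 higher and 3 lower against E16 (18.7% and 20.8% of all genes), with S100g the largest rise and Lct the largest fall in both.

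Of the other caudal and ParaHox genes, Gsx1 was at or under the floor throughout, and Cdx4 in all but 3 libraries. Cdx4 had 57 and 8 counts in the libraries labelled E12 hindstomach, at most 4 counts in E14 intestine and 0 in every other library, and Gsx1 reached at most 2 counts, in E14 hindstomach. Pdx1, a ParaHox factor of the pancreas, pylorus and duodenum, stood at 37.8, 28.6 and 25.7 CPM after deletion at E10 against 4.23 and 6.00 CPM in E16 wild type, higher by 2.59 (SE 0.43, edgeR adjusted p 3.38e-05). It stood at 121 and 123 CPM in the libraries labelled E13, higher than E16 wild type by 4.57 (SE 0.48, edgeR adjusted p 2.44e-07) and than E18 wild type by 3.20 (SE 0.44, edgeR adjusted p 2.74e-05). At E18, the libraries labelled E15 held 26.3 and 24.8 CPM against 13.5 and 13.1 CPM (0.94, SE 0.42, edgeR adjusted p 0.101). In adult wild type Pdx1 had 2 and 3 counts, against 63 and 110 counts (2.61 and 7.85 CPM) in the libraries labelled deleted (edgeR adjusted p 0.0134).

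Of 50 listed homeobox genes outside the Hox clusters, 48 were tested in embryos. After deletion at E10, 17 were higher and 8 lower (23.9% and 27.6% of all genes), with a median of 0.71 against -0.10 over all genes; Irx5 had the largest rise, from 0 counts in both E16 wild-type libraries to a mean of 17.8 CPM, at least 113-fold (edgeR adjusted p 6.6e-10), and Lmx1a the largest fall, from 44 and 71 counts to 2, 0 and 1 (edgeR adjusted p 0.000794). In the libraries labelled E15, 6 were higher and 7 lower (7.79% and 9.70% of all genes), led by Prox1 (2.80, SE 0.54, edgeR adjusted p 0.000528) and Zeb1, with 1 and 2 counts against 56 and 72 (edgeR adjusted p 0.00945). Against E18, 10 were higher and 3 lower in the libraries labelled E13 (8.19% and 7.91% of all genes), with Nkx6-3 the largest rise, at 70.4 and 72.2 CPM against 0 and 2 counts (edgeR adjusted p 4.11e-06). Against E16, 12 were higher and 11 lower (18.7% and 20.8% of all genes). In the adult, 1 of 19 tested was higher, Pdx1, and 3 were lower (1047 and 1497 of all 12444 genes), Barx2 most (-3.44, SE 0.56, edgeR adjusted p 0.0133). Of 14 Wnt pathway genes, 0 were called higher and 6 lower by edgeR in intestine from E14 to E16 (13.7% and 11.9% of all genes), with Tcf7l1, a repressor of Wnt targets, lowest (-2.66, SE 0.24, edgeR adjusted p 6.9e-08). From E12 to E14, 7 of the 14 were higher and 3 lower (1952 and 843 of all 17239 genes). Cdx1 rose at both steps, and any link to these genes was not tested.

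Across the 15 group means, the genes whose log2 levels were most like each member, of 17305 genes, are given as a description, since the groups share stage, organ and depth. For Cdx2 they were Slc17a4 (Pearson r 0.972), Gucy2c (0.960), Ush1c (0.941), Clrn3 (0.935) and AA986860 (0.935). For Isx they were Slc17a4 (0.935), Gucy2c (0.922), Cdx2 (0.918), Ush1c (0.913) and Prkg2 (0.908), so that Cdx2 ranked 3 for Isx, and Isx ranked 8 for Cdx2. For Cdx1 they were Muc13 (0.960), Pdzd3 (0.954), Mttp (0.954), Acnat1 (0.950) and Gpr128 (0.948). Cdx2 ranked 2080 for Cdx1 (0.708) and Isx ranked 3204 (0.609), and over the 13 embryonic groups alone they ranked 2199 and 2881.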

How the data were processed

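The RNA table holds raw counts per gene as deposited by the authors; STAR 2.5.3a and HTSeq, and the mm9 build, are named without a role per the submitters' processing notes. Adult columns had blank cells that shifted their rows, and these were closed up. In the stretch between the blanks this moved the Spearman correlation with E18 from 0.28 to 0.295 up to 0.929 to 0.962; the 3 members lie above the first blank. The table has 2 columns that match no sample and were not used.

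Counts of the 27 embryonic libraries in 13 groups were fitted jointly, and those of the 4 adult libraries apart, with edgeR 4.0.16 (R 4.3.3): TMM scaling, filterByExpr with a minimum count of 10, the quasi-likelihood F test and Benjamini-Hochberg adjustment over 17239 and 12444 genes. All 3 members passed the filter in both fits. SE is the absolute log2 fold change over the square root of F. Genes were called at an adjusted p under 0.05 and a log2 fold change of at least 1. On simulated counts, 85 of 100 genes changed by 2 on the log2 scale were recovered in embryos and 97 of 100 in adults. DESeq2 1.42.0, another scaling, no filter, a replicate block and left-out libraries were alternatives. Counts of 3 or fewer per library were treated as the floor. Intervals are not given for levels, whose precision is limited by 2 or 3 libraries a group.

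Members and gene lists were chosen with earlier results of these data known. Named genes are the members, Bcmo1, Scarb1, Cdx4, Pdx1 and Gsx1, the called gene with the largest change in each direction for most of the lists described, with 1 such gene not reported here, and the 5 genes most like each member; the Hox genes, Gata4 and Nkx6-3 were chosen after their values were seen. Cdx2os was not analysed here. Promoter windows came from RefSeq's GRCm38.p6, which is not the build named in the processing notes, and no sequence is given for Cdx1. ATAC-seq and ChIP-seq files were not used.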

Additional observations from a re-analysis of the deposited data

Results flagged for a closer look

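The effect of organ changed with stage for 2 members. The gap between intestine and hindstomach widened from E12 to E16 by 6.53 on the log2 scale for Cdx1 (edgeR adjusted p 6.26e-05) and by 4.09 for Cdx2 (edgeR adjusted p 1.44e-06), beside 20.3% of genes called, and by 0.81 for Isx, which was not called (edgeR adjusted p 0.574). Leaving out 1 library moved the Cdx1 value between 5.57 and 13.18; the upper end is fitted against an E12 intestine library with 0 Cdx1 counts and is no measured fold. The E12 side uses the libraries labelled hindstomach that carry posterior Hox genes. With E14 in place of E12 the changes were -0.10, 0.18 and -0.38, none called, beside 13.1% of genes called.

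The effect labelled E15 differed from the effect of deletion at E10 by 7.37 for Cdx1 (edgeR adjusted p 3.28e-07), 4.30 for Cdx2 (edgeR adjusted p 5.53e-08) and 2.83 for Isx (edgeR adjusted p 0.0124). The Isx difference was not called with DESeq2 (adjusted p 0.0894) or with replicate pairs summed (adjusted p 0.0909), and ranged from 2.23 to 4.77 when 1 library was left out. The adult libraries labelled deleted all lay above adult wild type, and the E10-deleted libraries all below E16 wild type, for Cdx1 (adult log2 fold change 0.19) and Cdx2 (adult log2 fold change 0.93). That difference between adult and E10 was not tested, since the sets were fitted apart.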

How the results depend on the processing

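Of 561 values of the members' tests and comparisons under alternatives that kept all libraries of a group or left out whole groups, 535 kept direction and call; dropping the count filter, using the adult columns as deposited, or leaving out the libraries labelled E12 hindstomach, E16 forestomach or deleted at E13 changed none. The change in the gap between intestine and hindstomach from E14 to E16, the E13 and E10 comparison and the E15 and E10 comparison of effects were added after the data were seen. So were leaving out the libraries labelled E12 hindstomach and the summing of replicates. Where a cause is not given below, it was not tested. With another scaling (RLE) or DESeq2, Cdx2 turned to -0.011 from E12 to E14 and to 0.00 from E16 to E18 in intestine. With DESeq2, calls were lost for Cdx1 from E16 to E18 (-1.73) and for E13 against E16 (-1.59), and for Isx at E15 (-2.04) and in the E15 and E10 comparison of effects (2.40); Cdx1 gained one from E12 to E14 in hindstomach (-2.25, adjusted p 0.0451).

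Same-numbered libraries had correlations of deviations of -0.08 to 0.099, with 0 of 18 comparisons above 0.1, so they share only a number. With the replicate number as a block, calls were gained by Cdx1 from E12 to E14 in hindstomach (-2.17), by Cdx1 (-2.13) and Isx (-3.18) after E10 deletion against hindstomach, by Isx in the libraries labelled E13 against E16 (-1.07) and E18 (-1.53), and by Cdx1 at E15 (1.32). Only the E10-deleted group has a replicate 3, so the block sets that library aside. Leaving it out gave -2.15 for Cdx1 and -3.18 for Isx against hindstomach. Fits of only the groups compared lost Cdx1 from E12 to E14 (4.46) and gained Cdx1 from E12 to E14 in hindstomach (-2.15), Isx at E13 against E16 (-1.04) and E18 (-1.53) and Cdx1 at E15 (1.27). In them the gap for Cdx1 between E14 and E16 turned to 0.001. They called 214 genes from E12 to E14 (main 2795), 122 between intestine and hindstomach at E12 (1599) and 2480 at E14 (1178), 188 against forestomach at E12 (1740), and 1890 and 3813 for the change in the gap from E12 and from E14 (3504 and 2255). With all 31 libraries in 1 fit, adult Cdx2 passed the fold minimum (1.06). With the closest replicate pairs summed, fewer libraries remained and calls were lost for Cdx1 from E16 to E18 (-1.74) and at E13 against E16 (-1.56), and for Isx at E15 (-1.89) and in the comparison of effects (2.89); 1376 genes were called at E13 against E18 (2775) and 1552 at E15 (3015).

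Leaving out 1 library kept 283 of 312 values. Without 1 library, Cdx1 ranged from -7.09 to 0.53 between intestine and forestomach at E12, from -8.25 to -0.64 against hindstomach at E12, and from 2.12 to 2.86 against forestomach at E14. Cdx1 ranged from -1.65 to -1.53 at E13 against E16, from -1.82 to -1.70 from E16 to E18 and from -2.15 to -0.58 after E10 deletion against hindstomach. Cdx2 ranged from -0.26 to 0.21 between intestine and hindstomach at E12, -0.15 to 0.26 from E12 to E14, -0.10 to 0.049 from E16 to E18, -0.016 to 1.02 in hindstomach from E14 to E16, -0.43 to 0.60 for the gap between those stages and -0.018 to 0.13 at E13 against E16. Isx ranged from 2.60 to 2.82 against hindstomach and 2.80 to 5.17 between hindstomach and forestomach at E12, from -3.18 to -0.62 after E10 deletion against hindstomach, from -1.94 to -1.90 at E15 and from -4.44 to -2.64 in the adult. Some calls held but moved by over 1.5 times. Without 1 E14 hindstomach library these included Cdx2 between E12 and E14 in hindstomach (-4.47 to -3.44) and between intestine and hindstomach at E14 (3.44 to 4.47). For deletion at E10 against E16 intestine they included Cdx1 (-7.08 to -5.60) and Isx (-6.69 to -4.15). For E13 against E10 they included Cdx1 (4.07 to 5.49) and Isx (3.08 to 5.62), and for the E15 and E10 effects Cdx1 (6.92 to 8.39). Isx between intestine and forestomach at E12 ran from 5.50 to 7.88. Genes called ranged from 1762 to 4895 from E12 to E14, 1102 to 3980 and 1138 to 3899 for intestine against forestomach and hindstomach at E12, 670 to 853 against hindstomach at E14, 2467 to 3098 in hindstomach from E14 to E16 and 1254 to 2055 in the adult. Cdx1 from E12 to E14 ranged from 3.49 to 11.11; this upper end and the values of -7.09 and -8.25 are fitted against 1 library with 0 counts. Low counts limit the statements on Cdx1 in E12 intestine, with 0 and 32 counts, and on Cdx2 and Isx in E14 and E16 forestomach, at the floor of 3 or below it.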
